A study of Taeniopygia guttata with 22 samples.

Results

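The sex by age interaction in the song nucleus RA asks of each gene whether its level changed differently with age in males and in females. It was tested in all 22 libraries for the 16004 of 21786 genes with an NCBI gene ID that passed a filter on low counts. RA, the robust nucleus of the arcopallium, is the last forebrain station of the pathway that produces song in songbirds. Male zebra finches learn and sing a song, females do not sing, and the nucleus is much the larger in adult males. Its projection neurons fire fast and steadily and drive the brainstem neurons of the vocal organ and of breathing, while local GABAergic neurons inhibit them.

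RA was cut by laser capture from frozen, cresyl violet stained sections of zebra finch brains and its RNA was read as cDNA by sequencing. By their labels 5 libraries are of males at 50 days posthatch, 5 of males at 20 days, 7 of females at 50 days and 5 of females at 20 days, 22 in all. The labels name no transgene and no treatment, and per the labels no bird was seen to sing before it was killed, within 20 minutes of the start of the light period. The 50-day birds are at an age when males practise song, and the 20-day birds are younger than that.

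The interaction is the log2 change from 20 to 50 days in males minus the same change in females. A positive value means that the male change lay above the female change, and a negative value that it lay below. A gene was called at an adjusted p under 0.05 in edgeR's quasi-likelihood test, with the Benjamini-Hochberg adjustment over all 16004 genes. Levels are counts per 1000000 counts (CPM), scaled between libraries with TMM (a trimmed mean of log ratios). They are given for each library or as the mean ± SD over the 5, 5, 7 and 5 libraries of the groups in the order above, and for the 7 female 50-day libraries as the range and median. Errors of log2 values are approximate standard errors (SE). Each is the size of the log2 value divided by the square root of the F statistic of its quasi-likelihood test.

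Sequencing depth was tied to sex at 20 days and, less fully and the other way round, at 50 days. Total counts were 16.17 M to 22.35 M in 13 shallow libraries and 49.12 M to 65 M in 9 deep ones. All 5 male 20-day libraries were shallow and all 5 female 20-day libraries were deep, while 3 of 5 male and 1 of 7 female 50-day libraries were deep. Both ties run along the interaction, since male 50-day and female 20-day levels enter it with the same sign. Depth set and sex at 20 days cannot be told apart in these groups, and each count below is to be read with the values of the fits that allow for depth. Female 50-day replicates 5 and 6 have brain ids with a number in common and may come from 1 bird, so that n = 7 counts libraries and may not count birds. Their log2(CPM + 1) values correlated across genes with r = 0.9916, against 0.9683 to 0.9802 for the other pairs of that group. Female 20-day replicates 4 and 5, whose brain ids differ, correlated with r = 0.9883, against 0.9749 to 0.9806 for the other pairs of theirs. Pairs within the male groups lay between 0.9732 and 0.9783. Between groups, deviations from the group means correlated for some male 20-day with female 50-day libraries, with r up to 0.367. They also did for some female 20-day with male 50-day libraries. Both kinds of pair lie on the same side of the interaction. The main fit takes libraries as independent, so the p-values below may be too small. Markers of the projection neurons of the arcopallium were present in all 4 groups, with SLC17A6 averaging 555 CPM in male and 537 CPM in female 50-day libraries, and 0 of 4 such markers were called for the interaction by edgeR, DESeq2 or limma voom, with 0 at an unadjusted p under 0.05. In the wider list of projection neuron genes described below, 1 of 29 was called higher and 9 lower (34.5% called, against 12.3% of all genes). Of 3 markers of choroid plexus and ependyma 1 passed the filter on low counts, FOXJ1. It had at most 0.442 CPM in male 50-day, 0.871 CPM in male 20-day, 1.01 CPM in female 50-day and 0.596 CPM in female 20-day libraries. TTR and CLIC6 did not pass the filter, with 199 and 74 counts over all libraries.

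The interaction was called for 1971 of 16004 genes (12.3%), with 920 (5.75%) higher and 1051 (6.57%) lower. Of these, 751 had an interaction of at least 2-fold, with 355 higher and 396 lower. The median interaction was -0.03 over all genes tested, and its median size was 0.84 among the called genes. Of the parts it is made of, the male age change was called for 4276 genes (26.7%), the female age change for 2378 (14.9%), the sex difference at 50 days for 5304 (33.1%) and the sex difference at 20 days for 337 (2.11%). By direction, 2005 genes rose and 2271 fell in males, and 1089 rose and 1289 fell in females.

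In most called interactions a change with age was called in males and none in females. Of the 920 genes called higher, 580 (63%) rose in males with no called change in females, 163 (17.7%) fell in females with none called in males, and 79 (8.59%) rose in males and fell in females. Of the 1051 called lower, 646 (61.5%) fell in males with no called change in females, 181 (17.2%) rose in females with none called in males, 86 (8.18%) fell in both sexes, and 62 (5.9%) fell in males and rose in females. The male change was the larger in size in 1489 of the 1971 (75.5%), against 59.1% of all genes tested. The age changes had opposite signs in 1331 of the 1971 (67.5%), against 41.2% of all genes tested. Genes were called on the difference between these changes, which by itself favours opposite signs and large changes in the sex that changed more. Neither this share nor that of larger male changes can therefore be read, against all genes tested, as a trait of the called genes. Across the 16004 genes the male and female age changes, which share no library, correlated with r = 0.27, a description in which genes are not independent replicates. At the other margin, 847 of the 920 were higher in males at 50 days with no sex difference called at 20 days, and 979 of the 1051 were lower in males at 50 days with none called at 20 days. The interaction is the test of the difference between the sexes, and the calls of its parts only describe its shape. Within each sex depth also differed between the ages. The age changes and sex differences given here and below were fitted without a depth term, and the fits that allow for depth tested the interaction alone.

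**Figure D1:**
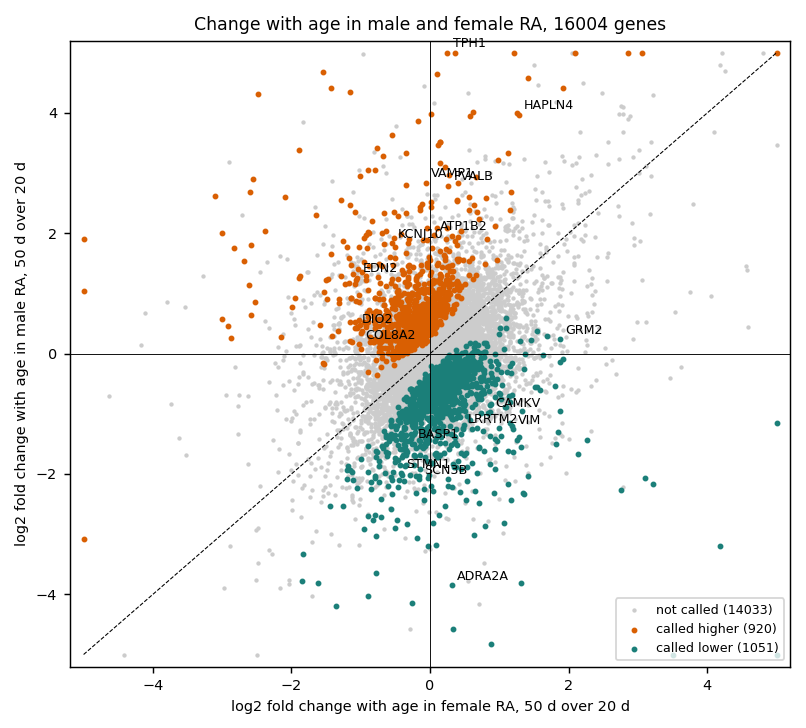
Log2 change with age in male RA (vertical axis) against that in female RA (horizontal axis) for the 16004 genes tested, with changes beyond 5 drawn at 5. Points are genes, coloured by the call for the interaction (920 higher, 1051 lower), the dashed line marks equal changes, and most coloured points spread further along the male axis than along the female one.

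With a term for the depth set the interaction was called for 72 genes (0.45%), of which 38 lay higher and 34 lower, and 71 of them were among the 1971. Of the 1971 genes, which were called in the same libraries, 1162 had an unadjusted p under 0.05 with the same sign, and the median ratio of the values was 0.88. The median SE of the interaction was 0.439 with this term and 0.283 without it. The depth term itself was called for 0 of 16004 genes by edgeR, which was the tool used for it. Of these genes 530 had an unadjusted p under 0.05, and the smallest adjusted p was 1. Depth varied only within the 50-day groups, so the term was estimated from those libraries alone. At the younger age depth set and sex coincided, so the 0 calls cannot show that depth had no effect there. When age was compared within shallow male and within deep female libraries alone (2, 5, 1 and 5 libraries of the groups in the order above), 37 genes were called, 16 higher and 21 lower, of which 33 were among the 1971. This fit has a single female 50-day library, which is assumed to vary like the others, and all its libraries are also in the fit of all 22. With every library thinned to the smallest total 1775 genes were called, of which 1656 were among the 1971. Of the 122 called genes named below, 19 kept their call with the depth term and 11 in the fit of shallow males and deep females. Among the gene lists described below the depth term had calls in 10, with 3 lower among genes of growing neurons, 2 higher among astrocyte genes, 2 lower among adhesion and synapse organiser genes, 2 lower among neuropeptide and monoamine receptors, 1 in each direction among calcium genes, 1 higher each among matrix, synaptic vesicle and growth factor genes, and 1 lower each among axon guidance and axonal cytoskeleton genes. In the other lists described below the depth term had 0 calls. For 9 of the 122 the value with the depth term was under 0.5 times that without it, namely 1.24 for LAMTOR1, 1.97 for TMEM269, 1.35 for VIPR1, -1.23 for CPNE7, 0.63 for DCN, -0.29 for EGLN3, 0.45 for LRRC3C, -0.34 for GAP43 and -0.27 for GAD1. The 19 are PVALB, VAMP1, HAPLN4, KCNJ10, ATP1B2, PTN, SLC24A2 and EDN2 among those called higher, and STMN1, BASP1, KLF7, LRRTM2, PCDH8, EPHA6, NPY2R, CACNA1H, KIF1B, VIM and UCN3 among those called lower.

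**Figure D2:**
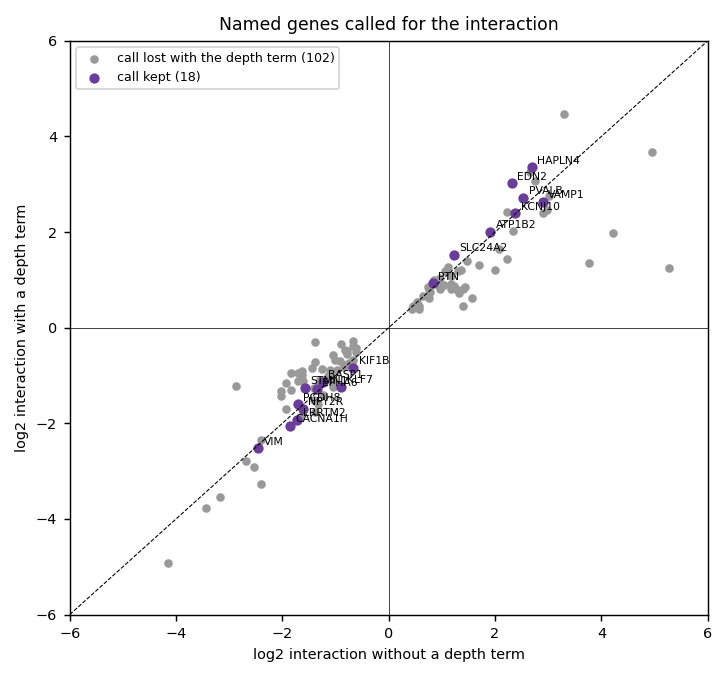
Interaction (log2) with the depth set as a model term (vertical axis) against that without it (horizontal axis) for the named genes called, leaving out SIX2 and UCN3, which lie beyond the axes. Purple points kept their call with the depth term and carry their names, grey points lost it, the dashed line marks equal values, and every point lies in a quadrant of equal signs.

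PVALB, VAMP1, SCN4B, HAPLN4 and KCNC1 rose in males and were called higher, and in each of the 5 lists they come from more members were called lower than higher. They were put together after their values were seen. PVALB, the calcium buffer parvalbumin, stood at 5789, 6398, 7764, 8337 and 6824 CPM in male 50-day libraries, against 901, 1157, 572, 1431 and 1016 CPM in male 20-day libraries. In females it stood at 609 to 1152 CPM, with a median of 775, at 50 days and at 551, 750.0, 1156, 497 and 455 CPM at 20 days. Every male 50-day library lay above every other library, and the other 3 groups overlapped. PVALB rose in males (log2 2.79, SE 0.25, adjusted p = 5.13e-08), its change in females was 0.26 (SE 0.22, adjusted p = 0.48), and the interaction was 2.53 (SE 0.32, adjusted p = 6.78e-05). VAMP1, a vesicle protein of the release machinery, stood at 182, 229, 182, 249.5 and 148 CPM in male 50-day libraries, against 36.5, 16.4, 31, 28.7 and 25.2 CPM in male 20-day libraries. Female levels were 13.3 to 37.9 CPM, with a median of 26.4, at 50 days and 26.4, 22.5, 13.3, 47.1 and 32.2 CPM at 20 days. Again the male 50-day libraries lay above all others with no overlap, and the interaction was 2.90 (SE 0.38, adjusted p = 8.25e-05).

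SCN4B, a sodium channel subunit linked to fast resurgent current, had 46.7, 30.1, 26, 37.8 and 39.8 CPM in male 50-day libraries, against 8.43, 1.49, 1.68, 3.87 and 2.21 CPM in male 20-day libraries. It had 4.18 to 11 CPM, with a median of 7.06, in female 50-day and 1.68, 1.54, 3.52, 7.86 and 1.96 CPM in female 20-day libraries. The female groups overlapped and the male groups did not. The interaction of 2.22 (SE 0.61, adjusted p = 0.0196) was 1.63 without female 20-day replicate 4 (adjusted p = 0.0563) and was 2.84 without male 20-day replicate 1 (adjusted p = 0.00274). HAPLN4, a link protein of perineuronal nets, had 43.5, 109, 88.6, 62.8 and 29.1 CPM in male 50-day libraries, against 6.56, 3.24, 3.36, 3.97 and 4.02 CPM in male 20-day libraries, and 4.22 to 13.7 CPM, with a median of 8.36, in female 50-day against 2.56, 4.11, 5.16, 2.44 and 3.28 CPM in female 20-day libraries. It rose in both sexes, with log2 3.97 in males and 1.28 in females, with no overlap between the age groups of the males, and more in males (interaction 2.69, SE 0.44, adjusted p = 0.000413). KCNC1, the Kv3.1 potassium channel of fast-spiking neurons, averaged 281 ± 53.2 CPM in male 50-day and 96.8 ± 7.79 CPM in male 20-day libraries (SD, n = 5 each), against 153 ± 15.3 CPM (SD, n = 7) in female 50-day and 103 ± 10.6 CPM (SD, n = 5) in female 20-day libraries. It too rose in both sexes and more in males (interaction 0.97, adjusted p = 0.000243).

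**Figure D3:**
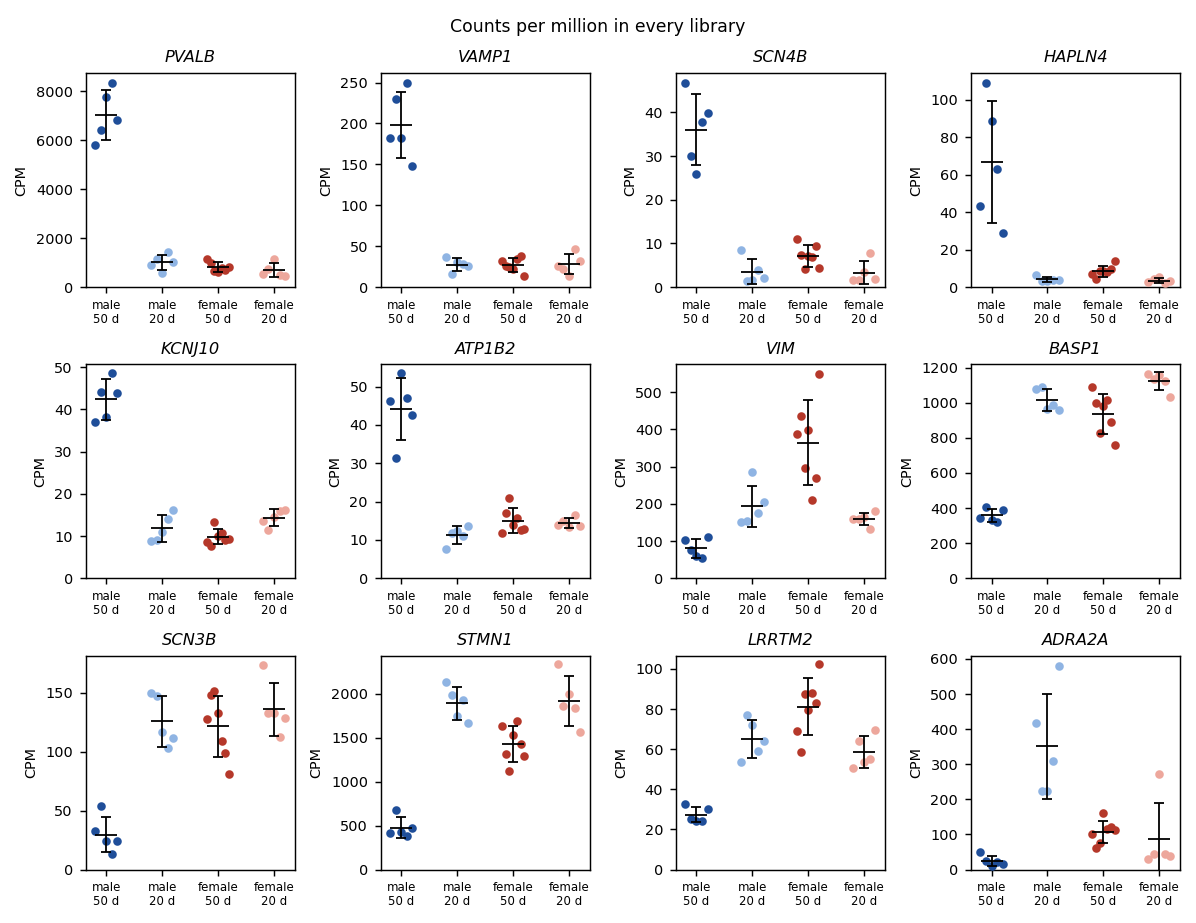
CPM of 12 called genes in every library, with groups along the horizontal axis in the order male 50 d, male 20 d, female 50 d and female 20 d. Points are libraries, and bars give the mean and 1 SD (n = 5, 5, 7 and 5). PVALB, VAMP1, HAPLN4, KCNJ10 and ATP1B2 stand apart in male 50-day libraries on the high side, STMN1, BASP1, LRRTM2 and SCN3B on the low side, and VIM is on average highest in female 50-day and lowest in male 50-day libraries.

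Among ion channel genes as a whole most calls were lower. The share called in each list from here on is to be read against 12.3% of all genes, with 5.75% higher and 6.57% lower. Of 51 tested potassium and HCN channel genes 4 were called higher and 16 lower (39.2% called, against 12.3% of all genes), with a median interaction of -0.52, a median male change of -0.46 and a median female change of 0.06. Both counts were 0 with the depth term and in the fit of shallow males and deep females. KCNC4, the Kv3.4 channel, averaged 13.8 ± 5.2 CPM in male 50-day and 49.5 ± 2.74 CPM in male 20-day libraries, against 41.5 ± 5.13 CPM in female 50-day and 48.7 ± 3.25 CPM in female 20-day libraries (SD; interaction -1.62, adjusted p = 9.03e-05). KCNQ5, a channel of the slow M-current, averaged 2.69 ± 1.68 CPM in male 50-day and 24.9 ± 5.36 CPM in male 20-day libraries, against 16 ± 5.73 CPM in female 50-day and 16.3 ± 9.58 CPM in female 20-day libraries (SD; interaction -3.17, adjusted p = 0.000881). KCNK17, a two-pore potassium channel, averaged 26.7 CPM in male 50-day libraries and 2.96 CPM in male 20-day libraries, against 2.28 CPM in female 50-day and 2.04 CPM in female 20-day libraries. Its interaction of 3.02 (adjusted p = 0.0386) lost its call in 12 of 22 fits that left out 1 library, and without female 20-day replicate 2 it was 2.26 (adjusted p = 0.109).

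The sodium channel list had 1 of 8 members called higher, SCN4B, and 5 called lower (75% called, median interaction -0.58), and 0 with the depth term. SCN3B, a beta subunit, had 32.9, 53.6, 24.1, 13.4 and 24.2 CPM in male 50-day libraries, against 150.1, 147, 117, 103 and 112 CPM in male 20-day libraries, and 81.1 to 152 CPM, with a median of 128, in female 50-day against 173, 133, 133, 112 and 129 CPM in female 20-day libraries. The male 50-day libraries lay below all others, and the other 3 groups overlapped (interaction -1.93, SE 0.34, adjusted p = 0.000723). SCN2A, the Nav1.2 channel, and FGF13, which binds sodium channels, had interactions of -0.83 and -0.84 (adjusted p = 0.00249 and 0.00599), and both fell in males (log2 -0.84 and -1.09) with changes of 0.00 and -0.24 in females.

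Of 32 calcium channel and calcium buffer genes 1 was called higher, PVALB, and 14 lower (46.9% called), with a median interaction of -0.69, where the depth term had PVALB and 1 lower. The count of 14 was 9 without male 20-day replicate 1, without female 20-day replicate 5 or without male 50-day replicate 4. CACNA1H, the T-type channel Cav3.2, averaged 3.99 ± 0.727 CPM in male 50-day and 12.1 ± 2.64 CPM in male 20-day libraries, against 10.7 ± 2.42 CPM in female 50-day and 8.94 ± 1.98 CPM in female 20-day libraries (SD; interaction -1.86, adjusted p = 0.000214). HPCAL4, a calcium sensor, had an interaction of -2.02 (adjusted p = 0.000989) and fell in males (log2 -2.59).

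Most genes of growing neurons fell in males, and more of them were called lower than not. Of 26 tested members 0 were called higher and 14 lower (53.8% called), where 22 fell in males and 14 fell in females, and the medians were -1.28 for the male change, -0.45 for the female change and -0.66 for the interaction. Among all 16004 genes 1051 were called lower, 2271 fell in males and 1289 fell in females. With the depth term 3 were called lower, and in the fit of shallow males and deep females 2. DESeq2 called 1 higher and limma voom 0, and 2 had an unadjusted p under 0.05 on that side in edgeR's test. STMN1, the microtubule regulator stathmin, had 415, 676, 429.5, 378 and 475 CPM in male 50-day libraries, against 2127, 1986, 1742, 1921 and 1668 CPM in male 20-day libraries. In females it had 1119.5 to 1687 CPM, with a median of 1431, at 50 days and 2332, 1857, 1989, 1832 and 1561 CPM at 20 days. The male 50-day libraries lay below all others, and the female groups overlapped although the female fall was called (log2 -0.42, adjusted p = 0.0266). The interaction of STMN1 was -1.57 (SE 0.19, adjusted p = 4.38e-05). BASP1, a growth cone membrane protein, averaged 359 ± 37.6 CPM in male 50-day and 1016 ± 63.6 CPM in male 20-day libraries, against 937 ± 115 CPM in female 50-day and 1123 ± 52.5 CPM in female 20-day libraries (SD; interaction -1.24, adjusted p = 2.5e-06). GAP43, another growth cone protein, fell in both sexes, with log2 -2.09 in males and -1.20 in females (interaction -0.89, adjusted p = 0.0107). KLF7, a transcription factor of axon growth, fell in males (log2 -0.92) and changed by -0.03 in females (interaction -0.89, adjusted p = 0.000269).

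Axon guidance and adhesion genes were mostly called lower where they were called. Of 55 axon guidance genes 1 was called higher and 14 lower (27.3% called; median interaction -0.48), and 31 fell in males and 10 in females. EPHA6, an ephrin receptor, averaged 67.4 ± 7.01 CPM in male 50-day and 97.5 ± 14.8 CPM in male 20-day libraries, against 147 ± 28.9 CPM in female 50-day and 83.2 ± 7.84 CPM in female 20-day libraries (SD), so that it fell in males and rose in females (log2 -0.53 and 0.82; interaction -1.35, adjusted p = 7.86e-05). SEMA3F, a secreted semaphorin, PLXNA4, a semaphorin receptor, and SLIT1, a secreted repellent, had interactions of -1.41, -1.25 and -1.83 (adjusted p = 0.000628, 0.0011 and 0.0012). ROBO1, a receptor of the SLIT proteins, fell in males (log2 -0.64, adjusted p = 0.00852) and its interaction was -0.19 (SE 0.24, adjusted p = 0.666), or 0.41 with the depth term.

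Of 47 adhesion and synapse organiser genes 1 was called higher and 17 lower (38.3% called; median interaction -0.51), with 28 falling in males and 3 in females. LRRTM2, a postsynaptic partner of neurexins, had 32.6, 25.4, 24.3, 24.2 and 30 CPM in male 50-day libraries, against 53.8, 76.9, 71.8, 58.9 and 63.8 CPM in male 20-day libraries, and 58.5 to 103 CPM, with a median of 82.8, in female 50-day against 50.6, 63.9, 53.8, 54.9 and 69.6 CPM in female 20-day libraries. The male 50-day libraries lay below all others and the female groups overlapped (interaction -1.72, SE 0.19, adjusted p = 1.66e-05). PCDH8, a protocadherin, and NRXN3, a neurexin, had interactions of -1.71 and -1.15 (adjusted p = 6.05e-05 and 0.000156). NPNT, a matrix ligand of integrins, fell in males (log2 -2.90) and had an interaction of -2.40 (adjusted p = 0.00517). CNTNAP2, an adhesion protein of axons, went the other way, with an interaction of 0.78 (SE 0.20, adjusted p = 0.0121), and fell in females (log2 -0.45).

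Among genes of GABAergic neurons falls were called in males and rises in females. Of 35 tested members 0 were called higher and 20 lower, where 16 fell in males and 14 rose in females, and the median changes were -0.54 in males and 0.41 in females (interaction -0.80). The 20 are 57.1% of the list, against 6.57% of all genes called lower, and both the depth term and the fit of shallow males and deep females had 0. DESeq2 and limma voom also called 0 higher, and 0 had an unadjusted p under 0.05 on that side in edgeR's test. GAD1, which makes GABA, averaged 254 ± 46.5 CPM in male 50-day and 312 ± 52.7 CPM in male 20-day libraries, against 455 ± 48.6 CPM in female 50-day and 352 ± 49.6 CPM in female 20-day libraries (SD; interaction -0.67, adjusted p = 0.0147). SLC32A1, the vesicular transporter of GABA, fell in males and rose in females (log2 -0.51 and 0.28; interaction -0.78, adjusted p = 0.000733). PROX1, a transcription factor of interneurons, rose in females (log2 1.18, adjusted p = 1.57e-05) while its male change was -0.16 (adjusted p = 0.496; interaction -1.34, adjusted p = 0.000337). Summed over GAD1, GAD2 and SLC32A1 the level was 393 to 587 CPM in male 50-day, 592 to 789 CPM in male 20-day, 781 to 988 CPM in female 50-day and 643 to 773 CPM in female 20-day libraries. In bulk RNA, fewer cells of a type and less RNA per cell cannot be told apart.

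Transmitter receptors were lower more often than higher. Of 22 glutamate receptor genes 3 were called higher and 8 lower (50% called, median interaction -0.38). The count of 3 was 0 or 1 in 14 of the fits that left out 1 library, and the 8 were 5 without male 20-day replicate 2, male 20-day replicate 3, female 20-day replicate 4 or male 50-day replicate 4. GRIN2B, the NMDA receptor subunit that prevails in young neurons, averaged 50.7 ± 4.56 CPM in male 50-day and 136 ± 25.4 CPM in male 20-day libraries, against 123 ± 15.5 CPM in female 50-day and 124 ± 28.4 CPM in female 20-day libraries (SD; interaction -1.41, adjusted p = 9.22e-05). GRM5 and GRM8, metabotropic receptors, had interactions of -1.44 and -0.81 (adjusted p = 0.000288 and 0.00554). Of 16 GABA and glycine receptor genes 6 were called lower in edgeR's test and by limma voom, and 7 by DESeq2 (37.5% called by edgeR, median interaction -0.66). On the higher side each of these called 0, with 0 at an unadjusted p under 0.05 in edgeR's test. GABBR2, a subunit of the GABA-B receptor, fell in males and rose in females (log2 -0.35 and 0.32; interaction -0.67, adjusted p = 0.000614). GLRA2, a glycine receptor subunit, and GABRG3, a GABA-A receptor subunit, had interactions of -1.04 and -1.71 (adjusted p = 0.00238 and 0.00501).

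Of 52 receptors of neuropeptides and monoamines 3 were called higher and 12 lower (28.8% called, median interaction -0.64), with 23 falling in males and 7 in females. ADRA2A, the alpha-2A adrenergic receptor, had 49.2, 24.8, 10.4, 22 and 14.7 CPM in male 50-day libraries, against 418, 223, 224, 309.7 and 579.5 CPM in male 20-day libraries, and 60.2 to 160.1 CPM, with a median of 113, in female 50-day against 30.6, 43.6, 273, 43.4 and 38.8 CPM in female 20-day libraries. The male groups did not overlap. ADRA2A and UCN3, described further on, were the 2 genes whose sex difference was called at both ages with opposite signs. ADRA2A was turned round, being lower in males at 50 days (log2 -2.13, adjusted p = 0.00217) and higher in males at 20 days (log2 2.03, adjusted p = 0.0373). The interaction was -4.16 (SE 0.72, adjusted p = 0.000723) and -5.30 without female 20-day replicate 3. HTR1F, a serotonin receptor, fell in males and rose in females (log2 -1.37 and 1.03), with means of 4.42 ± 1.56 CPM in male 50-day, 11.4 ± 5.39 CPM in male 20-day, 31.4 ± 8.18 CPM in female 50-day and 15.3 ± 3.36 CPM in female 20-day libraries (SD; interaction -2.40, adjusted p = 0.000976). CRHR1, a receptor of corticotropin-releasing hormone, fell in both sexes and further in males (log2 -3.78 and -1.85; interaction -1.93, adjusted p = 0.000592). NPY2R, a receptor of neuropeptide Y, had an interaction of -1.62 (adjusted p = 0.000243). The count of 3 called higher was 1 without female 20-day replicate 5 or without male 50-day replicate 4.

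Synaptic vesicle genes had 2 of 45 members called higher and 15 lower (37.8% called, median interaction -0.34), where the depth term had VAMP1 alone. Those called higher were VAMP1 and the Z-linked CPLX1, a complexin that clamps release, which was chosen for naming as a Z-linked gene. SYN3, a synapsin, and SYT4, a synaptotagmin on the Z chromosome, fell in both sexes and further in males (log2 -1.46 and -1.36 in males, -0.36 and -0.44 in females; interaction -1.10 and -0.92, adjusted p = 0.000402 and 0.000438). Of 31 neurofilament and axonal cytoskeleton genes 1 was called higher and 9 lower (32.3% called, median interaction -0.23). The count of 1 was 0 to 3 over the fits that left out 1 library. KIF1B, a kinesin motor, ANK2, an ankyrin, and TUBA1B, an alpha tubulin, had interactions of -0.67, -0.67 and -0.61 (adjusted p = 0.00102, 0.00321 and 0.00403). Alpha tubulin genes are near-identical, so that reads of TUBA1B may be shared with its copies. NEFM, the medium neurofilament chain, rose in males (log2 0.66, adjusted p = 0.00202), and its interaction of 0.59 missed the threshold (SE 0.20, adjusted p = 0.0607).

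Genes of projection neurons had 1 of 29 members called higher and 9 lower (34.5% called, against 12.3% of all genes, median interaction -0.28). LHX9, SOX5 and SATB1, transcription factors of cortical and pallial neurons, fell in males (log2 -0.92, -1.05 and -0.65), changed by 0.05, -0.20 and 0.09 in females, and had interactions of -0.97, -0.85 and -0.75 (adjusted p = 0.000107, 0.00013 and 0.002). FOXP2, a transcription factor known for its part in speech and song learning, averaged 5.24 ± 1.19 CPM in male 50-day and 9.87 ± 1.97 CPM in male 20-day libraries, against 10 ± 2.38 CPM in female 50-day and 9.13 ± 1.91 CPM in female 20-day libraries (SD; interaction -1.04, adjusted p = 0.0204). FOXP1, its relative, had an interaction of 0.13 (SE 0.15, adjusted p = 0.633), and SLC17A6, the vesicular glutamate transporter, one of 0.01 (SE 0.16, adjusted p = 0.977).

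**Figure D4:**
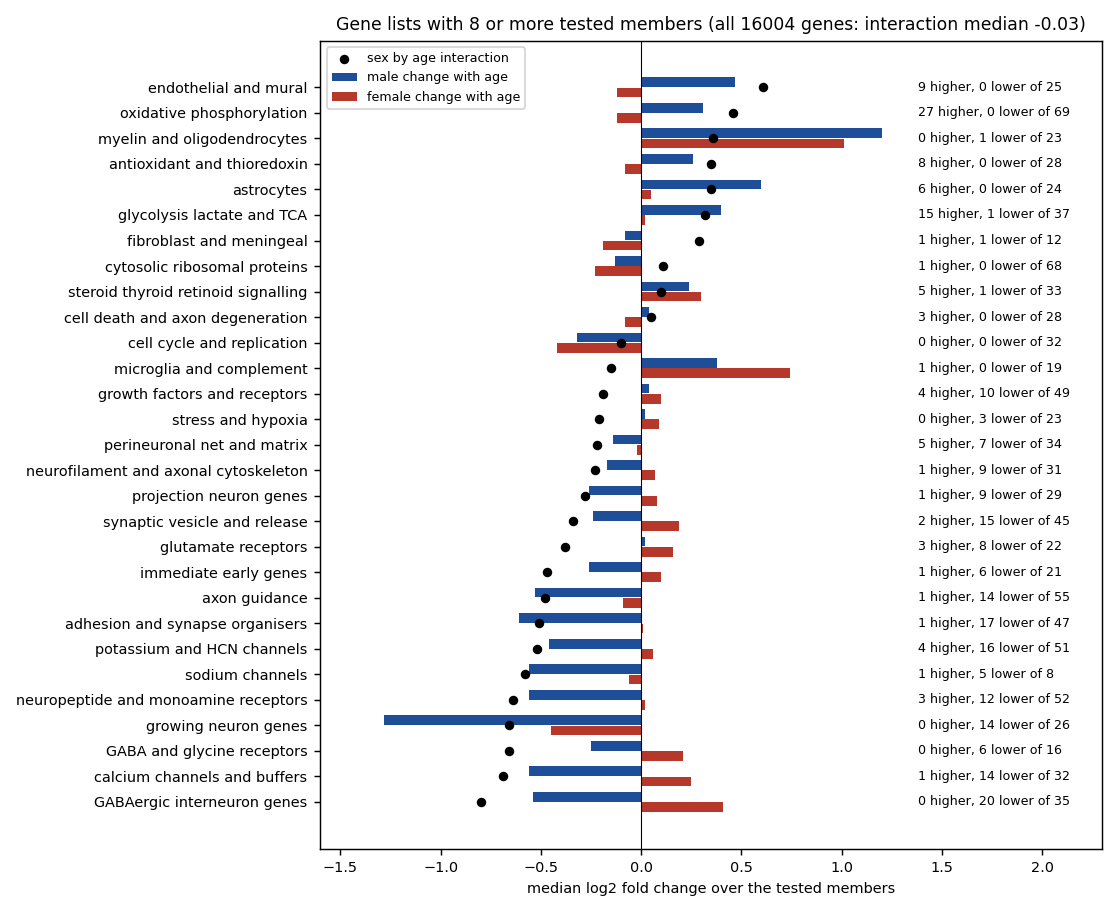
Median log2 change with age in males (blue bars) and in females (red bars) and median interaction (black points) over the tested members of 29 gene lists, with the counts called higher and lower beside each. GABAergic, calcium and receptor lists lie on the negative side of the interaction, and vessel, oxidative phosphorylation, myelin, astrocyte, antioxidant and glycolysis lists on the positive side.

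Most calls among genes of energy metabolism were higher. Of 69 oxidative phosphorylation genes 27 were called higher and 0 lower, and 32 rose in males while 1 rose and 9 fell in females. All 69 had a positive interaction, against 7579 of all 16004 genes, a description in which genes are not independent replicates. On the lower side DESeq2 and limma voom also called 0, and 0 had an unadjusted p under 0.05 in edgeR's test. The median changes were small, at 0.31 in males and -0.12 in females (interaction 0.46). The 27 are 39.1% of the list, against 5.75% of all genes called higher, and 0 were called with the depth term or in the fit of shallow males and deep females. NDUFS3, a core subunit of complex I, averaged 368 ± 66.5 CPM in male 50-day and 237 ± 17.4 CPM in male 20-day libraries, against 234 ± 42.1 CPM in female 50-day and 273 ± 35.3 CPM in female 20-day libraries (SD; interaction 0.85, adjusted p = 0.00423). NDUFA10, also of complex I, rose in males and fell in females (log2 0.28 and -0.29; interaction 0.57, adjusted p = 0.00158), and SDHD, a membrane anchor of complex II, rose in males (log2 0.73; interaction 0.76, adjusted p = 0.00185). Of 37 glycolysis, lactate and tricarboxylic acid cycle genes 15 were called higher and 1 lower (43.2% called, median interaction 0.32), with 26 rising in males and 5 in females, and 0 were called with the depth term. ENO1 and PGAM1, enzymes of glycolysis, and SUCLA2, of the tricarboxylic acid cycle, had interactions of 0.54, 0.43 and 0.46 (adjusted p = 0.00105, 0.0032 and 0.00217).

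Of 28 antioxidant genes 8 were called higher and 0 lower, where DESeq2 called 1 lower, limma voom 0, and 1 had an unadjusted p under 0.05 on that side (28.6% called by edgeR, median interaction 0.35). With the depth term 0 were called. PRDX6, a peroxiredoxin, averaged 975 ± 206 CPM in male 50-day and 389 ± 95 CPM in male 20-day libraries, against 396 ± 75.2 CPM in female 50-day and 357 ± 37.2 CPM in female 20-day libraries (SD; interaction 1.18, adjusted p = 0.00113). GPX3 and GPX4, glutathione peroxidases, had interactions of 1.44 and 0.73 (adjusted p = 0.00222 and 0.00187). TXNRD1, a thioredoxin reductase, was higher in males at both ages (log2 3.13 at 50 days and 1.97 at 20 days) and its interaction of 1.16 was not called (SE 0.55, adjusted p = 0.184). Of 68 ribosomal protein genes of the cytosol 1 was called higher, RPS28 (log2 1.23, adjusted p = 0.00103), and 0 lower, with 1 at an unadjusted p under 0.05 on that side and 0 called by DESeq2 or limma voom. The share called was 1.47%, below the 12.3% of all genes, while 53 had a positive and 15 a negative interaction.

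KCNJ10 and ATP1B2, astrocyte genes with a part in potassium clearance, were high in male 50-day libraries. Of 24 astrocyte genes 6 were called higher by edgeR and limma voom, and 7 by DESeq2 (25% called by edgeR, median changes 0.60 in males and 0.05 in females). On the lower side each of these called 0, with 0 at an unadjusted p under 0.05 in edgeR's test. KCNJ10, the inward rectifier Kir4.1, had 36.9, 44.2, 38.1, 48.6 and 43.9 CPM in male 50-day libraries, against 8.9, 8.96, 11.1, 14.1 and 16.2 CPM in male 20-day libraries, and 7.77 to 13.3 CPM, with a median of 9.2, in female 50-day against 13.6, 11.4, 14.6, 16 and 16.1 CPM in female 20-day libraries. The male 50-day libraries lay above all others. KCNJ10 rose in males and fell in females (log2 1.84 and -0.55; interaction 2.38, SE 0.23, adjusted p = 2.5e-06). ATP1B2, a subunit of the sodium pump, had 46.2, 31.3, 53.5, 47 and 42.6 CPM in male 50-day libraries, against 7.63, 11.8, 12.4, 10.9 and 13.7 CPM in male 20-day libraries, and 11.9 to 21.1 CPM, with a median of 14, in female 50-day against 13.8, 14.9, 13.4, 16.5 and 13.7 CPM in female 20-day libraries. Here too the male 50-day libraries lay above all others (interaction 1.91, SE 0.23, adjusted p = 4.66e-05). GPR37L1, an astrocyte receptor, rose in males (log2 1.01; interaction 1.18, adjusted p = 0.000731). The summed level of 4 astrocyte markers was 5118 to 6686 CPM in male 50-day, 3858 to 5315 CPM in male 20-day, 3209 to 3702 CPM in female 50-day and 3054 to 4020 CPM in female 20-day libraries, 0 of the 4 were called by edgeR, DESeq2 or limma voom, with 1 at an unadjusted p under 0.05, and its part in these results was not tested.

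Most myelin genes rose in each sex. Of 23 members 15 rose in males and 14 in females (median changes 1.20 and 1.01). For the interaction 0 were called higher and 1 lower, a share of 4.35% that is below the 12.3% of all genes. The median interaction of the list was 0.36, with 16 members positive and 7 negative, so that few calls do not mean values near 0. On the higher side 2 had an unadjusted p under 0.05 in edgeR's test, where DESeq2 and limma voom called 0. MBP, the myelin basic protein, averaged 6838 ± 1537 CPM in male 50-day and 443 ± 308 CPM in male 20-day libraries, against 2750.3 ± 959.6 CPM in female 50-day and 371 ± 309 CPM in female 20-day libraries (SD; interaction 1.06, SE 0.76, adjusted p = 0.401). Summed over 3 oligodendrocyte markers the level was 6543 to 11566 CPM in male 50-day, 96.5 to 958 CPM in male 20-day, 2365 to 5785 CPM in female 50-day and 65.5 to 1158 CPM in female 20-day libraries. The gene called lower was PDGFRA, the receptor that marks oligodendrocyte precursors, which averaged 35 ± 8.4 CPM in male 50-day and 58 ± 1.71 CPM in male 20-day libraries, against 66.8 ± 9.49 CPM in female 50-day and 55 ± 6.99 CPM in female 20-day libraries (SD; interaction -1.01, adjusted p = 0.00185). Of 19 microglia and complement genes 1 was called higher, AOAH, an enzyme that inactivates bacterial lipid (log2 2.75, adjusted p = 0.011), and 0 lower, with 0 at an unadjusted p under 0.05 on that side and 0 by DESeq2 or limma voom. The share called was 5.26%, again below that of all genes.

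Of 25 vessel genes 9 were called higher by edgeR and limma voom, and 12 by DESeq2, and 4 fell in females (36% called by edgeR, median interaction 0.61). On the lower side each of these tools called 0, with 0 at an unadjusted p under 0.05 in edgeR's test. In both fits that allow for depth 0 were called. COL4A1, a collagen of basement membranes, averaged 103 ± 24.8 CPM in male 50-day and 83.9 ± 22.4 CPM in male 20-day libraries, against 31.2 ± 5.12 CPM in female 50-day and 82.7 ± 10.7 CPM in female 20-day libraries (SD). It fell in females (log2 -1.41) with a male change of 0.29 (adjusted p = 0.237; interaction 1.70, adjusted p = 9.83e-05). CLDN5, the tight junction protein of the blood-brain barrier, rose in males and fell in females (log2 0.68 and -0.36; interaction 1.03, adjusted p = 0.000398), and SPARC, a matrix protein, rose in males (log2 0.69; interaction 0.92, adjusted p = 0.000218). The summed level of 4 endothelial markers, of which 2 were called, was 350 to 517 CPM in male 50-day, 218 to 307 CPM in male 20-day, 169 to 252 CPM in female 50-day and 248 to 293 CPM in female 20-day libraries, and the part of these cells in the result was not tested. Of 12 fibroblast and meningeal genes 1 was called in each direction (16.7% called, against 12.3% of all genes). DCN, a matrix proteoglycan, had an interaction of 1.56 (adjusted p = 0.0256), which was 1.44 without female 20-day replicate 4 (adjusted p = 0.0508) and 1.14 without male 50-day replicate 4 (adjusted p = 0.0687). The summed level of 4 fibroblast markers was 92.8 to 196 CPM in male 50-day, 39.5 to 96.5 CPM in male 20-day, 36.0 to 175 CPM in female 50-day and 50.1 to 107 CPM in female 20-day libraries.

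Perineuronal net and matrix genes were called in both directions, 5 of 34 higher and 7 lower (35.3% called, median interaction -0.22). TIMP2, an inhibitor of matrix proteases, rose in males (log2 0.67; interaction 0.65, adjusted p = 0.000996), and SPOCK1, a proteoglycan, fell in males (log2 -1.30; interaction -1.24, adjusted p = 0.00103). Growth factors and their receptors had 4 of 49 called higher and 10 lower (28.6% called, median interaction -0.19). PTN, the heparin-binding growth factor pleiotrophin, averaged 1179 ± 98 CPM in male 50-day and 956 ± 97.4 CPM in male 20-day libraries, against 592 ± 40.7 CPM in female 50-day and 856 ± 78.2 CPM in female 20-day libraries (SD). It rose in males and fell in females (log2 0.30 and -0.53; interaction 0.83, adjusted p = 8.25e-05). PDGFA, a platelet-derived growth factor, fell in both sexes and further in males (log2 -1.12 and -0.32; interaction -0.79, adjusted p = 0.000792). BDNF, the neurotrophin, averaged 3.15 ± 1.03 CPM in male 50-day and 14.4 ± 6.33 CPM in male 20-day libraries, against 7.15 ± 2.77 CPM in female 50-day and 10.9 ± 2.84 CPM in female 20-day libraries (SD; interaction -1.58, adjusted p = 0.0137). NTRK2, the receptor of BDNF on the Z chromosome, was higher in males at both ages and its interaction was -0.19 (SE 0.13, adjusted p = 0.389).

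Among genes of steroid, thyroid and retinoid signalling 5 of 33 were called higher and 1 lower (median interaction 0.10). The share called was 18.2%, against 12.3% of all genes, and 0 were called with the depth term. The count of 5 was 3 without female 20-day replicate 1 or without male 50-day replicate 5. DIO2, the enzyme that activates thyroid hormone, averaged 366 ± 74 CPM in male 50-day and 274 ± 71.4 CPM in male 20-day libraries, against 106 ± 24.2 CPM in female 50-day and 221 ± 44.2 CPM in female 20-day libraries (SD). It fell in females (log2 -1.06, adjusted p = 0.000393) with a male change of 0.42 (adjusted p = 0.126; interaction 1.48, adjusted p = 0.000996). SLCO1C1, a transporter of thyroid hormone, and SRD5A2, the 5-alpha reductase that reduces testosterone, rose in males (log2 0.64 and 1.51; interaction 0.76 and 1.39, adjusted p = 0.00345 and 0.00639). ESR1 and ESR2, the estrogen receptors, and CYP19A1, which codes for aromatase, were at low levels. Of these 3 genes 0 were called by edgeR, DESeq2 or limma voom, and 0 had an unadjusted p under 0.05 in edgeR's test. ESR1 had an interaction of -0.91 (SE 0.73, adjusted p = 0.461), ESR2 of 0.43 (SE 1.42, adjusted p = 0.885) and CYP19A1 of -0.49 (SE 0.84, adjusted p = 0.762). With the depth term the signs of all 3 turned, to 0.46, -1.65 and 1.00. GHR, the growth hormone receptor on the Z chromosome, rose in males (log2 0.90) and its interaction was 0.72 (SE 0.28, adjusted p = 0.093).

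Immediate early genes, which neurons switch on with activity, had 1 of 21 called higher and 6 lower (33.3% called, median interaction -0.47), and the 6 were 3 without female 20-day replicate 5. ARC, a protein of active synapses, averaged 87.6 ± 25 CPM in male 50-day and 166 ± 29.2 CPM in male 20-day libraries, against 226 ± 31.9 CPM in female 50-day and 169 ± 41 CPM in female 20-day libraries (SD; interaction -1.34, adjusted p = 0.000939). NR4A3, a nuclear receptor, fell in males and rose in females (log2 -0.85 and 0.86; interaction -1.71, adjusted p = 0.00505), and NR4A2, its relative, fell in both sexes (log2 -1.26 and -0.49; interaction -0.77, adjusted p = 0.000273). Among cell death genes 3 of 28 were called higher and 0 lower by edgeR, DESeq2 and limma voom, with 2 at an unadjusted p under 0.05 on the lower side. The share of 10.7% called is below the 12.3% of all genes, and 0 were called with the depth term and 1 in the fit of shallow males and deep females. They were FAS, a death receptor, BOK, a BCL2 relative, and BIRC2, an inhibitor of apoptosis (log2 2.22, 1.12 and 0.57, adjusted p = 0.000438, 0.00738 and 0.00875). Stress genes had 3 of 23 called lower and 0 higher, a share of 13% that is near the 12.3% of all genes, with 0 called when depth was a term. DESeq2 called 1, limma voom 0, and 1 had an unadjusted p under 0.05 on the higher side. HSPH1, a chaperone, and EGLN3, an oxygen sensor, had interactions of -1.09 and -1.39 (adjusted p = 0.000358 and 0.0201). HSPA5, the chaperone of the endoplasmic reticulum, had one of -0.62 (adjusted p = 0.0384), which lost its call in 9 of 22 fits that left out 1 library, with an adjusted p of up to 0.0792 without female 20-day replicate 4. Cell cycle genes had 0 of 32 called by edgeR, with 5 at an unadjusted p under 0.05, while DESeq2 called 2 and limma voom 1, all higher. Of 7 red blood cell and 5 choroid plexus genes 0 were called by edgeR, DESeq2 or limma voom, with 0 and 1 at an unadjusted p under 0.05.

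Some genes moved in opposite directions in the sexes. The interaction was called for 1585 genes with a symbol and a mean of at least 5 CPM. By changes called in both sexes, 64 of them rose in males and fell in females, and 57 fell in males and rose in females. VIM, the intermediate filament vimentin, had 103, 75.2, 60.8, 54.8 and 111 CPM in male 50-day libraries, against 151, 154, 284, 175 and 206 CPM in male 20-day libraries, and 211 to 549 CPM, with a median of 387, in female 50-day against 159, 159, 165, 133 and 181 CPM in female 20-day libraries. In neither sex did the age groups overlap. VIM fell in males and rose in females (log2 -1.26 and 1.19; interaction -2.45, SE 0.32, adjusted p = 7.84e-05). CAMKV, a kinase-like protein of synapses, averaged 75.1 ± 22.7 CPM in male 50-day and 147 ± 16 CPM in male 20-day libraries, against 309 ± 98.5 CPM in female 50-day and 171 ± 17.9 CPM in female 20-day libraries (SD; interaction -1.83, adjusted p = 0.000212). Rising in males and falling in females were EDN2, an endothelin, CHRDL2, a relative of chordin, DBX2, a homeobox factor, and PDGFD, a platelet-derived growth factor. EDN2 averaged 13.8 ± 5.96 CPM in male 50-day and 5.76 ± 1.91 CPM in male 20-day libraries, against 3.5 ± 0.958 CPM in female 50-day and 7.25 ± 1.92 CPM in female 20-day libraries (SD; interaction 2.31, adjusted p = 0.000984). The interactions of CHRDL2, DBX2 and PDGFD were 2.34, 2.00 and 2.07 (adjusted p = 0.000398, 0.000677 and 0.00159).

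In other called interactions the change was called in females. Of the same 1585 genes, 102 rose and 92 fell in females by a called change, with a male change under 0.25 in size. GRM2, a metabotropic glutamate receptor, averaged 8.36 ± 4.58 CPM in male 50-day and 7.08 ± 1.5 CPM in male 20-day libraries, against 31.2 ± 10.4 CPM in female 50-day and 8.51 ± 3.3 CPM in female 20-day libraries (SD; interaction -1.63, adjusted p = 0.0246). NRIP2, which interacts with nuclear receptors, rose in females (log2 1.88; interaction -2.02, adjusted p = 0.0225). EGR1, an immediate early gene, and STIM1, a calcium store sensor, rose in females (log2 1.63 and 1.37), but their interactions of -1.66 and -1.38 (adjusted p = 0.036 and 0.0314) lost their calls in 11 and 7 of 22 fits that left out 1 library. Without male 20-day replicate 5 EGR1 was at -1.38 (adjusted p = 0.0816), and without male 20-day replicate 3 STIM1 was at -1.21 (adjusted p = 0.0678). COL8A2, a collagen, averaged 132 ± 40.5 CPM in male 50-day and 119 ± 30.5 CPM in male 20-day libraries, against 47.7 ± 10.2 CPM in female 50-day and 96.6 ± 20.9 CPM in female 20-day libraries (SD; interaction 1.18, adjusted p = 0.00818). LRRC3C, B3GNT4, a sugar transferase, and LYRM9 also fell in females (log2 -1.55, -1.13 and -0.87; interaction 1.39, 1.33 and 1.06, adjusted p = 0.00985, 0.0117 and 0.0131). DAPK2, a kinase linked to cell death, fell in females (log2 -1.53), and its interaction of 1.36 (adjusted p = 0.0267) lost its call in 4 of 22 fits, with an adjusted p of 0.0563 without male 50-day replicate 4.

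The Z chromosome, of which males carry a pair and females a single copy, had a share of called genes near that of the autosomes. Of 658 tested Z-linked genes 85 (12.9%) were called, 41 higher and 44 lower, against 1772 of 12921 autosomal genes (13.7%), and among autosomes with at least 100 tested genes the share ran from 8.49% on chromosome 29 to 18% on chromosome 20. The median interaction of Z-linked genes was -0.02, while their median sex difference was 0.67 at 50 days and 0.69 at 20 days. Of 281 Z-linked genes with a sex difference called at 20 days, 244 had no called interaction. That share is near the share without a call among all 658, of which 85 were called. None of the 6 tested W-linked genes was called by edgeR, DESeq2 or limma voom, with 0 at an unadjusted p under 0.05. Their median sex difference was -0.10 at 50 days and -0.19 at 20 days, with 0 called at either age in edgeR's test. These levels do not set the sexes apart, so they cannot be read as those of genes that females alone carry. Whether the W label holds for the genes counted was not tested. SLC24A2, an exchanger of calcium and sodium on the Z chromosome, had 213, 185, 208, 205 and 145 CPM in male 50-day libraries, against 40.6, 32.9, 40, 44.5 and 24.1 CPM in male 20-day libraries, and 56.2 to 90.4 CPM, with a median of 73.4, in female 50-day against 23.6, 31.9, 33.5, 33.7 and 37.2 CPM in female 20-day libraries. Age groups did not overlap in either sex, and the gene rose in both and further in males (log2 2.39 and 1.16; interaction 1.23, SE 0.22, adjusted p = 0.000793). CPLX1 likewise rose in both sexes (log2 1.59 and 0.61; interaction 0.97, adjusted p = 0.00398). ACOT12, an acetyl-CoA hydrolase, TEK, the angiopoietin receptor of endothelium, and S1PR3, a receptor of sphingosine 1-phosphate, rose in males (log2 1.76, 0.99 and 0.57; interaction 2.66, 1.31 and 1.27, adjusted p = 0.00393, 0.00737 and 0.00187). On the lower side were PCSK1, a protease that cuts prohormones, DIRAS2, a small GTPase, ZNF462, a zinc finger protein, and SHC3, a neuronal adaptor (log2 -1.63, -1.29, -1.11 and -1.07, adjusted p = 0.0207, 0.000468, 0.00426 and 0.00388). SHC3 was higher in males at 20 days (log2 1.01, adjusted p = 0.000391), and at 50 days its sex difference was -0.05 (SE 0.15, adjusted p = 0.823). DMRT2, a relative of the sex-determining factor DMRT1, had an interaction of -1.38 (adjusted p = 0.036), which lost its call in 11 of 22 fits that left out 1 library, with an adjusted p of 0.0657 without female 20-day replicate 3.

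The largest interactions included genes that a few libraries set. Among 1764 called genes with a mean of at least 5 CPM, 13 (0.737%) had a group whose highest library was at least 10 times its lowest on the scale of CPM plus 0.5, against 1.36% of 11211 genes tested. UCN3, the peptide urocortin 3, had 0.033, 0, 0, 0 and 0.0385 CPM in male 50-day libraries, against 0.281, 0, 0, 137 and 171 CPM in male 20-day libraries, and 0 to 123 CPM, with a median of 0.135, in female 50-day against 0, 0, 0, 0.0542 and 0 CPM in female 20-day libraries. Thus 5 libraries, male 20-day replicates 4 and 5 and female 50-day replicates 5, 6 and 7, had 47.2 to 171 CPM, and the other 17 had at most 0.281 CPM. All 4 groups held libraries at or near 0. The interaction was called (adjusted p = 0.000764), and as the lower groups hold 4 and 3 counts in all, the fitted fold has no meaning as a size. With limma voom it was not called (adjusted p = 0.302). Female 50-day replicates 5 and 6 are the pair that may be 1 bird. Over the genes tested, deviations of male 20-day replicate 4 correlated with those of these 2 libraries (r = 0.223 and 0.258). Those of male 20-day replicate 5 correlated with those of female 50-day replicate 7 (r = 0.367). The 5 libraries high in UCN3 may thus not be independent, and what they share was not tested. LAMTOR1, an anchor of growth signalling on lysosomes, had 5.7, 2.97, 4.89, 61.5 and 58.2 CPM in male 50-day libraries, against 4.82, 4.29, 3.73, 4.75 and 3.34 CPM in male 20-day libraries, and 2.42 to 6.33 CPM, with a median of 3.82, in female 50-day against 4.14, 3.99, 3.02, 61.4 and 55.8 CPM in female 20-day libraries. In the male 50-day and the female 20-day group replicates 4 and 5 had 55.8 to 61.5 CPM, and the other 18 libraries had 2.42 to 6.33 CPM. The 4 high libraries were all deep, while the other deep libraries were at the low level. The interaction of 5.28 (SE 1.14, adjusted p = 0.00411) was 4.68 without female 20-day replicate 4. It was not called with limma voom (3.64, adjusted p = 0.13), with the depth term (1.24, adjusted p = 0.872) or in the fit of shallow males and deep females (2.78, adjusted p = 0.559).

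**Figure D5:**
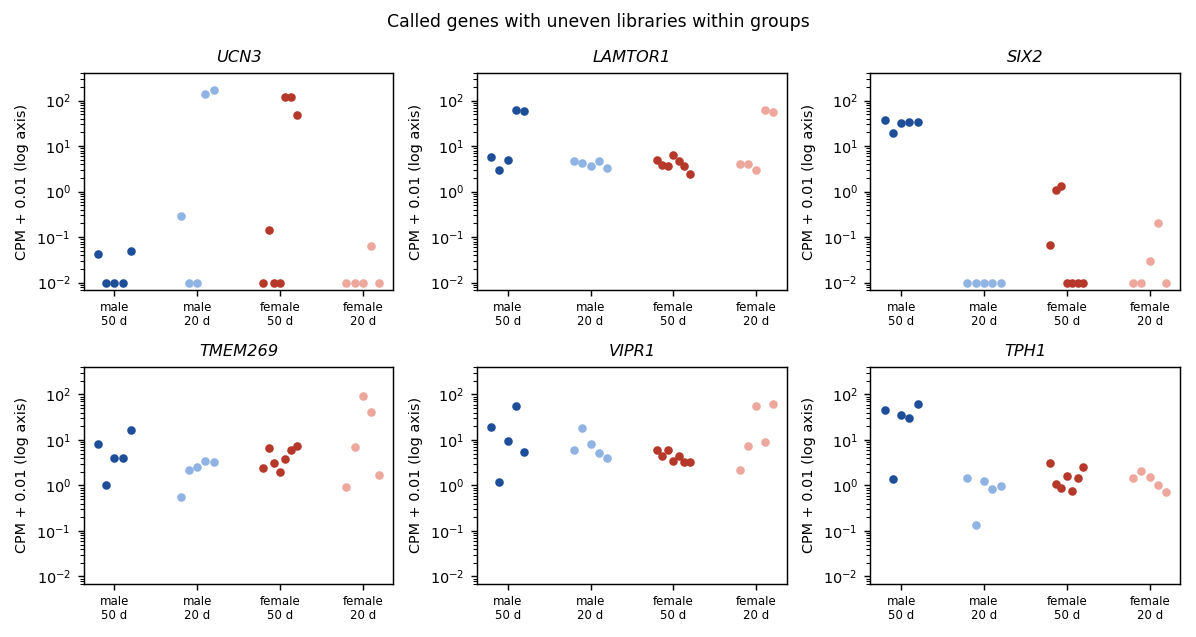
CPM plus 0.01 on a log axis of 6 called genes in every library, with groups in the order male 50 d, male 20 d, female 50 d and female 20 d along the horizontal axis. Points are libraries. UCN3 is high in 5 libraries of 2 groups and LAMTOR1 in 4 libraries of 2 groups, while SIX2 is high in all 5 male 50-day libraries and TPH1 in 4 of them.

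SIX2, a homeobox factor, had 36.8, 19.3, 31.5, 33.6 and 33.7 CPM in male 50-day libraries and 0 CPM in all 5 male 20-day libraries, against 0 to 1.33 CPM, with a median of 0, in female 50-day and 0, 0, 0.0198, 0.199 and 0 CPM in female 20-day libraries. With 6914 counts against 0 in the male groups it was at least 1059-fold higher in male 50-day libraries, taking 3 counts over the whole 20-day group as the floor. In females it had 51 counts at 50 days and 12 at 20 days, a ratio of 6.89 (exact interval at 95% confidence from 3.62 to 14.2, for counting error only). The male groups were far apart, yet the interaction (adjusted p = 0.0272) had an adjusted p of 0.482 without female 20-day replicate 4, the library with the most counts in that group, and of 0.0764 with every library thinned to the smallest total. TPH1, a tryptophan hydroxylase of serotonin synthesis, had 44.5, 1.4, 34.5, 30.4 and 60.5 CPM in male 50-day libraries, against 1.45, 0.124, 1.21, 0.825 and 0.962 CPM in male 20-day libraries, and 0.743 to 3.03 CPM, with a median of 1.44, in female 50-day against 1.45, 2.1, 1.5, 0.994 and 0.708 CPM in female 20-day libraries. In 4 of 5 male 50-day libraries it lay above all others, and replicate 2 was among the rest (interaction 4.95, SE 0.84, adjusted p = 0.000549). TMEM269 had 7.96, 1.01, 3.97, 4.03 and 16.9 CPM in male 50-day libraries, against 0.562, 2.18, 2.47, 3.35 and 3.23 CPM in male 20-day libraries, and 2 to 7.53 CPM, with a median of 3.82, in female 50-day against 0.896, 6.82, 94.7, 41 and 1.72 CPM in female 20-day libraries. Its interaction of 4.22 (adjusted p = 0.0234) was 3.02 without female 20-day replicate 3 (adjusted p = 0.0802) and 3.56 without male 50-day replicate 5 (adjusted p = 0.0571). VIPR1, a receptor of vasoactive intestinal peptide, had an interaction of 3.76 (adjusted p = 0.0227), which was 2.73 without male 50-day replicate 4 (adjusted p = 0.0796) and 3.18 without female 20-day replicate 5 (adjusted p = 0.0562).

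The other genes at the ends of the range were these. CLEC3B, tetranectin, averaged 128 ± 50.8 CPM in male 50-day and 37.3 ± 25.4 CPM in male 20-day libraries, against 24.2 ± 10.6 CPM in female 50-day and 55.4 ± 39.8 CPM in female 20-day libraries (SD; interaction 2.98, adjusted p = 0.00401). LACC1, an enzyme of macrophages, rose in males (log2 2.02; interaction 2.91, adjusted p = 0.0132), and the value was 2.14 without female 20-day replicate 3. HBE1, a haemoglobin chain whose reads may be shared with near-identical globin genes, fell in both sexes and further in females (log2 -3.08 and -6.38), and its interaction of 3.30 (adjusted p = 0.0185) was 2.59 without male 50-day replicate 1 (adjusted p = 0.0671). CPNE7, a calcium-dependent membrane protein, and RP2, a regulator of membrane protein traffic, fell in males (log2 -3.06 and -2.22; interaction -2.87 and -2.54, adjusted p = 0.00253 and 0.0106), and RP2 was at -3.23 without female 20-day replicate 1. ADGRD2, an adhesion receptor, fell in males (log2 -2.03; interaction -3.44, adjusted p = 0.0196) and was at -4.47 without male 50-day replicate 5. PALM, a membrane protein of neuronal processes, fell in males (log2 -1.83), and its interaction of -2.69 (adjusted p = 0.0256) was -2.47 without male 20-day replicate 2 (adjusted p = 0.0518). Apart from LAMTOR1 and UCN3, limma voom did not call TPH1, TMEM269, VIPR1, HBE1, KCNK17, LACC1, ADGRD2, PALM, NRIP2 or EGR1 (adjusted p from 0.0559 to 0.445 over the 12).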

How the data were processed

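The authors deposited 1 table of the 22 libraries with raw counts of reads for each gene, whole numbers that were not normalised. The submitters' processing notes name Trimmomatic 0.36, FastQC 0.11.9 and STAR 2.6.1, a trimmer, a quality check and an aligner. The labels' protocols give cDNA from 1 ng of total RNA with a SMART-Seq v4 kit. How reads were counted, on which build and annotation and with which strand setting, is not given in the sources used here, so reads of antisense or overlapping genes cannot be told apart. No molecular identifiers were used in the counts, so intervals and floors cover counting error only. Replicates are as the labels number them, and where they are not separate birds p-values measure only the spread between samples.

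Of 21955 entries 169 without a gene ID, with 0.0344% to 0.0739% of the counts of a library, were left out. Genes were filtered with edgeR's filterByExpr, scaled by TMM and fitted with edgeR 4.0.16 in R 4.3.3, in a quasi-likelihood model of the 4 groups with 5 contrasts. Chromosomes were read from a RefSeq table of the bTaeGut7.mat assembly, which matched 16205 genes and may not be the build of the counts. The steps were tested on simulated counts, in which the depth set had no effect on levels and libraries were independent. All effects were set in the male 50-day group, and genes at the lowest levels were given none. Far fewer genes carried an effect than were called here, which makes the adjusted threshold stricter. The shares below therefore hold for that setting and may differ in these data. Of 50 genes each with an interaction of 1.5-, 2-, 3- or 4-fold, 8%, 44%, 70% and 82% were called. A gene that is not called may therefore still have an interaction of such a size.

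The 32 gene lists, with 1142 distinct genes of which 989 were tested, and the genes named were chosen with earlier results of these data known. The names follow a rule. It takes the 10 largest called interactions in each direction with a symbol and a mean of at least 5 CPM, and, from each list, the 3 called genes of smallest p. It adds at most 5 genes of each pattern (opposite changes, female changes with a male change under 0.25, sex differences turned round, Z-linked) and 23 genes given by name. GAD2 is named as a marker. Some genes that the rule takes, and 1 list, are not reported here. Replicate numbers did not pair the samples. Of 30 pairs with the same number 3 had deviations correlated over 0.1 (median -0.012, from -0.11 to 0.28). Some pairs with different numbers did too, up to r = 0.367 for male 20-day replicate 5 with female 50-day replicate 7. The replicate block follows the numbers, so it does not allow for these pairs, and no other fit does. Every pair with r of at least 0.215 joined a male 20-day with a female 50-day library, or a female 20-day with a male 50-day library. Such pairs lie on the same side of the contrast. Deviations that such libraries share add to the error of the contrast, which the main fit, taking libraries as independent, does not count. Its p-values may therefore be too small, and by how much was not tested. Alternatives were DESeq2 1.42.0, limma 3.58.1 voom with quality weights, other scaling, filters, dispersions and thresholds, a depth term, thinning, a replicate block, summed replicates 5 and 6 of the 50-day females and leaving out each library. The fit of shallow males and deep females was chosen after seeing the data. Sequences were not used here.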

Additional observations from a re-analysis of the deposited data

Results flagged for a closer look

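Of 532 groups of 4 to 10 libraries tested, which are the 4 groups of each of the 133 named genes, 32 held a library whose gap to the others exceeded Dixon's 95% limit for its group size. Chance alone gives about 1 in 20 such groups. The interaction itself, called for 1971 genes, is the test of a difference between the sexes in the change with age.

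In the male 50-day group 12 values stood apart. ARC stood at 131 CPM in replicate 1, against 70.6 to 83 CPM in the others. SPOCK1 stood at 117 CPM in replicate 1, against 61.4 to 71.6 CPM in the others. GHR stood at 16 CPM in replicate 2, against 13.3 to 14 CPM in the others. GRIN2B stood at 58.5 CPM in replicate 2, against 47.6 to 50.7 CPM in the others. KCNC4 stood at 22.9 CPM in replicate 2, against 9.94 to 13 CPM in the others. CHRDL2 stood at 39 CPM in replicate 4, against 19 to 24.3 CPM in the others. DIRAS2 stood at 19.1 CPM in replicate 4, against 30.3 to 33.1 CPM in the others. ESR2 stood at 4.6 CPM in replicate 4, against 0.0495 to 0.336 CPM in the others. KCNQ5 stood at 5.62 CPM in replicate 4, against 1.62 to 2.63 CPM in the others. SRD5A2 stood at 141 CPM in replicate 4, against 92.8 to 104 CPM in the others. TXNRD1 stood at 19.5 CPM in replicate 4, against 9.75 to 12.1 CPM in the others. ADGRD2 stood at 1.85 CPM in replicate 5, against 0.056 to 0.544 CPM in the others.

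In the male 20-day group 5 values stood apart. HAPLN4 stood at 6.56 CPM in replicate 1, against 3.24 to 4.02 CPM in the others. ROBO1 stood at 92.1 CPM in replicate 1, against 56.5 to 65.1 CPM in the others. DCN stood at 35.7 CPM in replicate 5, against 19.4 to 24 CPM in the others. LACC1 stood at 10.8 CPM in replicate 5, against 4.29 to 5.78 CPM in the others. PDGFD stood at 16.1 CPM in replicate 5, against 10.8 to 12.3 CPM in the others.

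In the female 50-day group 7 values stood apart. BDNF stood at 13 CPM in replicate 1, against 4.94 to 7.85 CPM in the others. KCNC1 stood at 183 CPM in replicate 1, against 134 to 155 CPM in the others. ESR2 stood at 1.53 CPM in replicate 2, against 0 to 0.637 CPM in the others. EPHA6 stood at 204 CPM in replicate 5, against 121 to 154 CPM in the others. ACOT12 stood at 25.5 CPM in replicate 7, against 4.35 to 10.9 CPM in the others. HSPA5 stood at 334 CPM in replicate 7, against 178 to 225 CPM in the others. PDGFD stood at 10.5 CPM in replicate 7, against 2.92 to 5.35 CPM in the others.

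In the female 20-day group 8 values stood apart. RP2 stood at 40.7 CPM in replicate 1, against 8.54 to 12.4 CPM in the others. ADRA2A stood at 273 CPM in replicate 3, against 30.6 to 43.6 CPM in the others. GPX4 stood at 205 CPM in replicate 3, against 162 to 170.1 CPM in the others. SDHD stood at 96.3 CPM in replicate 3, against 78.3 to 83.1 CPM in the others. NTRK2 stood at 298 CPM in replicate 4, against 371 to 381 CPM in the others. SIX2 stood at 0.199 CPM in replicate 4, against 0 to 0.0198 CPM in the others. UCN3 stood at 0.0542 CPM in replicate 4, against 0 CPM in each of the others. SLIT1 stood at 75.5 CPM in replicate 5, against 50.2 to 55.2 CPM in the others.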

How the results depend on the processing

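The interaction was called for 1971 genes, 920 higher and 1051 lower. With the depth set as a term it was called for 72 (38 higher, 34 lower), and in shallow male and deep female libraries alone for 37 (16 higher, 21 lower). The median SE was 0.439 with the depth term and 0.283 without it, and the fit on shallow male and deep female libraries had 13 libraries. Tested against a 1.5-fold interaction the counts were 188 (94 higher, 94 lower), and at an adjusted p under 0.01 they were 755 (367 higher, 388 lower). Leaving out 1 library at a time gave 1506 to 2131 genes (700 to 999 higher, 806 to 1132 lower), with the lowest count without male 50-day replicate 4. With the replicate number as a block, although the numbers do not pair the samples, 1764 genes were called (813 higher, 951 lower), and 6 of the 122 called genes named lost their call (adjusted p from 0.0704 to 0.157), LAMTOR1 (2.77, adjusted p = 0.102), TMEM269, VIPR1, KCNK17, EGR1 and DAPK2. Counts lay within 1.5 times of 1971 with DESeq2 (2520), limma voom (2133), RLE scaling (1955), no filter (1741), a stricter filter (2020), robust dispersions (1966), thinned libraries (1775) and summed replicates 5 and 6 of the 50-day females (1797). The 122 called genes named kept their sign in every setting, a sign by which they were chosen in the same libraries. Of the 11 named genes that were not called, 6 turned their sign in some setting. With the depth term the values were 0.41 for ROBO1, 0.46 for ESR1, -1.65 for ESR2 and 1.00 for CYP19A1, and in shallow males and deep females alone 0.42 for ROBO1, 1.33 for ESR1, 1.30 for CYP19A1 and -0.02 for FOXP1. With limma voom ESR2 was at -0.89 and CYP19A1 at 0.06, and with the replicate block SLC17A6 was at -0.08, ESR2 at -1.05 and CYP19A1 at 0.21. Leaving out 1 library at a time gave -1.97 (without male 50-day replicate 4) to 1.05 for ESR2, -0.70 to 0.15 (without female 50-day replicate 7) for CYP19A1 and -0.05 to 0.09 for SLC17A6, whose value was 0.01 in all libraries and -0.00 in thinned ones. Of the 122 called genes 12 lost their call with limma voom and 13 in at least 1 fit that left out a library. Counts of 1 called member moved to 0, 2 or 3 in some fits that left out 1 library for the sodium and calcium channels (higher), neurofilaments (higher), fibroblasts (higher) and myelin (lower). Few counts limit the precision of SIX2, with 0 counts in the male 20-day and 12 in the female 20-day group.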
